A study of Homo sapiens with 9 samples.

Results

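The proteasome is the cell's main machine for breaking down proteins that carry ubiquitin, and its subunits and assembly factors were followed here in RNA from a human lymphoma line. The genes were chosen by name: symbols that begin with PSMA to PSMG followed by a digit, without PSMB8, PSMB9 and pseudogenes. Of 15436 genes in the table, 60 symbols matched that pattern. They comprised 44 members, 8 pseudogenes, PSMB8 and PSMB9, and 6 genes that share only the name (PSMC3IP, PSME3IP1 and 4 antisense RNAs). The members were 7 alpha-ring and 8 beta-ring core subunits, 9 subunits of the cap's base and 8 of its lid, 7 assembly chaperones, 4 activators and 1 inhibitor. PSMA8 and PSMB11, which belong to the same families, had no entry in the table under these symbols.

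All libraries came from Raji, an established B-cell line from a Burkitt lymphoma, so a single line stands for the disease. The series holds 9 libraries in 3 groups of 3, named by treatment: the solvent DMSO, hydroxyurea (HU), and thymidine with nocodazole (Thy-Noc). HU blocks ribonucleotide reductase and starves replication of deoxynucleotides. A surplus of thymidine upsets the nucleotide supply and halts replication, and nocodazole prevents microtubules from forming, which stops cells in mitosis. Doses, times, the order of thymidine and nocodazole, and whether the treated cells also received DMSO are not stated in the labels. Labels do not say that replicates were separate cultures, so p-values measure the spread between these libraries, which may be technical.

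In the proteasome's barrel-shaped core, outer alpha rings guard the entrance and inner beta rings hold the peptide-cutting sites. A regulatory cap docks on the alpha ring: its base contains a ring of ATPases that unfold the substrate, and its lid removes the ubiquitin chain. Smaller activators can open the gate in the cap's place, and dedicated chaperones build core and base but are not part of the finished particle. The subunits are needed in fixed ratios, and their genes are known to be raised together by the transcription factor NFE2L1 (also called NRF1) when proteasome activity falls. In dividing cells the proteasome destroys cyclins and other regulators that carry cells through DNA replication and mitosis.

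The libraries summed to between 74940755 and 110485145 counts. Values are given as CPM, a gene's share of its library's counts after TMM scaling. All 6 B-cell markers were measured, from CD22 between 0.915 and 8.64 CPM to CD79B, part of the B-cell receptor, between 517 and 973 CPM. The monocyte marker LYZ stayed under 1 CPM in all libraries. The other listed markers of T, monocytic, erythroid and epithelial cells had no entry in the table under their symbols. Markers of the cell cycle differed: CDC20, TOP2A and CENPF, which act in mitosis, were lower in HU than in DMSO. CCNE2 and SLBP, which act around the start of S phase, were higher (edgeR quasi-likelihood adjusted p from 0.00329 to 0.0377). The other 5 of 10 tested cycle markers, PLK1 and CCNB1 among them, were not called in HU by edgeR. DESeq2 called 7 of the 10, PLK1 and GADD45A among them (all genes 19.5%). Every HU library lay below every DMSO library for PLK1 and CCNB2 (all genes 15.3%) and above for GADD45A (all genes 15.5%). CCNB1 and CDKN1A overlapped. In Thy-Noc against DMSO SLBP alone was called, 3.4-fold higher (edgeR adjusted p 0.00518), and the log2 fold changes of the mitotic markers CDC20, TOP2A and CENPF were 0.41, −0.06 and 0.00045. In bulk RNA, a different mix of cycle stages and a change within each cell cannot be told apart, which holds for each difference below.

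Of the 44 members, 42 reached at least 1 CPM in at least 3 libraries and were tested. The alpha-ring gene PSMA1 (11 to 45 counts) and the activator gene PSME2 (9 to 112 counts) did not, although neither a complete core nor the usual form of that activator is known to form without them. A gene was called unsteady where, in any group, the highest replicate exceeded the lowest at least 10-fold after adding 0.5 CPM. Among tested members 13 were unsteady (31%), against 16.2% of all 11346 tested genes. The share was higher among genes with more annotated transcripts. None of 3 tested members with 1 to 3 transcripts was unsteady (3.99% of all such genes), against 5 of 25 with 4 to 10 (20%, all genes 14.8%) and 8 of 14 with over 10 (57.1%, all genes 26.3%). Whether a value holds all reads of its gene was not tested, and the 29 steady genes are described first below.

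**Figure D1:**
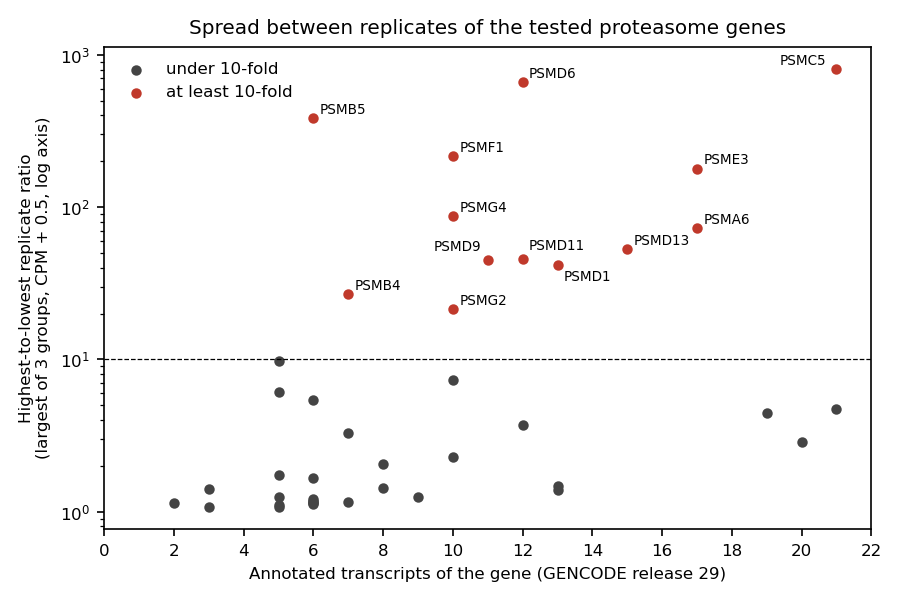
Spread between replicates of the 42 tested proteasome genes (y axis, largest ratio of highest to lowest replicate in any group, CPM + 0.5, log axis) against the number of annotated transcripts (x axis). The dashed line is the 10-fold limit; 13 genes lie above it with ratios from 21.4 to 808, while the highest gene below it, PSMB6, has a ratio of 9.8.

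In HU, 1 proteasome gene passed the test against DMSO: PSME4 was lower. PSME4 encodes a large activator that sits on the core in place of the cap and is known for its part in the removal of acetylated histones. The gene lies on the minus strand at chr2:53864067-53970840 (GRCh38). It stood at 204, 213 and 186 CPM in the DMSO libraries, 144, 126 and 136 CPM in HU and 209, 166 and 187 CPM in Thy-Noc. Each HU library lay below each DMSO and each Thy-Noc library, and the DMSO and Thy-Noc values overlapped. The mean ± SD (n = 3) was 201 ± 13.6 CPM in DMSO and 135 ± 8.92 CPM in HU, a level 1.48-fold lower. The log2 fold change was −0.57 ± 0.11 (SE), with an adjusted p of 0.0427 in edgeR's quasi-likelihood test after Benjamini-Hochberg correction over all tested genes. The call was close to its limit: it held without Thy-Noc replicate 1 (adjusted p 0.0487) and was lost without any other single library (adjusted p up to 0.146).

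That 1 call among 42 tested members compares with 3.56% of all tested genes called in either direction and 1.56% called lower. At an unadjusted p under 0.05 stood 13 members, where the share of all genes was 21.2%. DESeq2 called 13 members, 12 of them lower and PSMF1 higher, where it called 19.5% of all genes. In 14 of 42 members (33.3%) every HU library lay below every DMSO library, against 15.3% of all genes. For 2 members (4.76%), PSMB6 and PSMF1, every HU library lay above, against 15.5% of all genes. Among the steady members, 13 of 29 lay wholly below in HU (44.8%), against 16.8% of all steady genes. All such separations, here and below, use TMM-scaled CPM, in which a higher factor lowers a library's values. The TMM factors were 1.04, 1.03 and 1.10 in HU, 1.01, 0.971 and 0.978 in DMSO, and 0.948, 1.01 and 0.918 in Thy-Noc. Small gaps therefore depend on the scaling, and separations with other scaling were not counted. The members' median log2 fold change was −0.20, with 28 of 42 negative, where the median of all tested genes was 0.02 and 48.7% were negative. Scaling by total counts moved the median of all genes to 0.12 and that of the members to −0.10 with 26 of 42 negative, and quantile normalization gave −0.02 and −0.09. By class, the medians were −0.15 for 14 core genes, −0.24 for 17 cap genes and −0.20 for 7 assembly genes. The 4 tested activator and inhibitor genes had a median of 2.49, with 1 of 4 negative, and 2 of those 4 were unsteady. No test set these classes against each other.

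**Figure D2:**
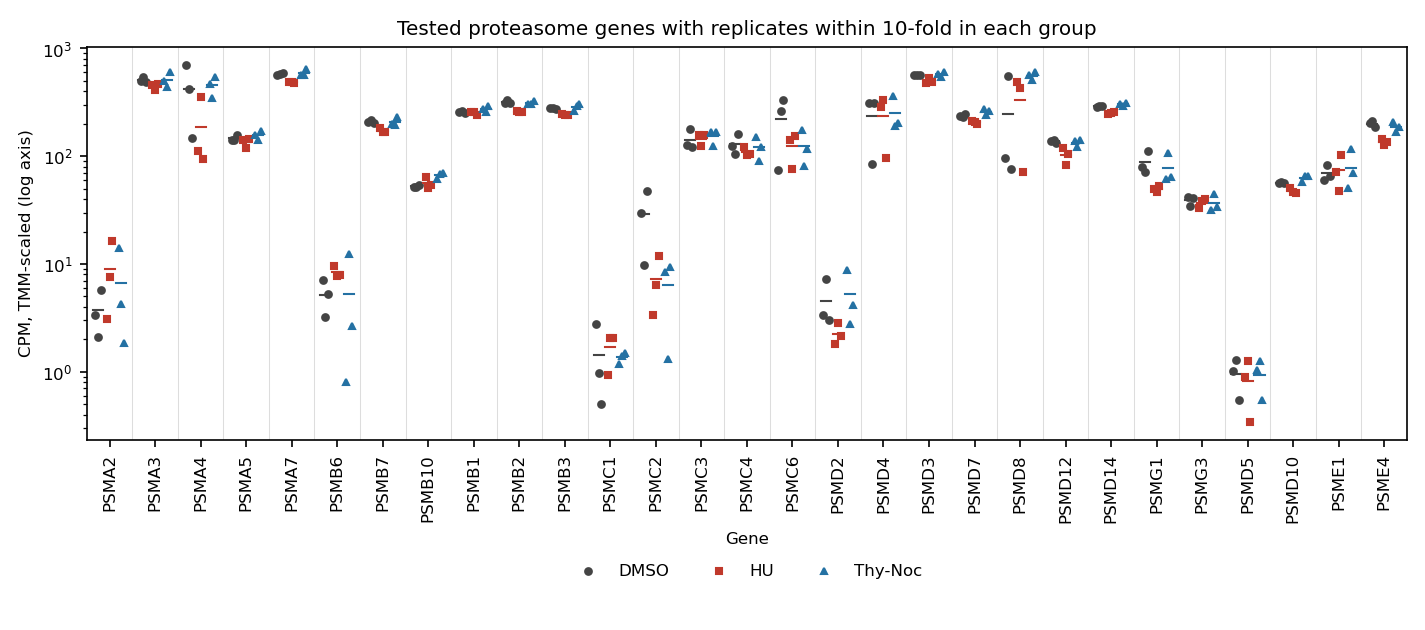
CPM of the 29 steady tested proteasome genes in each library (y axis, log axis), with circles for DMSO, squares for HU and triangles for Thy-Noc, and a bar at each group's mean. In PSMA7, PSMB2, PSMD7, PSMD14 and PSME4 the 3 HU squares lie under all other points, with gaps that are small against the spread between genes.

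Sequence upstream of these genes was read from the RefSeq promoter table (GRCh38.p14, 250 bases before to 50 after each start), which held 38 of the 44 members. The core of the antioxidant response element, TGACNNNGC, to which NFE2L1 and its relative NFE2L2 are known to bind, was searched on both strands. It was found in 12 of 38 member promoters (31.6%), in 13.6% of all 27305 promoters and in 15.6% of the 8660 promoters of tested genes. The CCAAT box was found in 17 of 38 (44.7%), against 35.7% of all and 38.3% of tested genes' promoters. Among the 12 promoters of members whose HU libraries all lay below DMSO, 5 held the first motif (41.7%) and 8 the second (66.7%). These 12 were picked by their values in the same data. The motif shares of all genes wholly below in HU were not computed, and a link between motif and HU was not tested. The 5 with the first motif were PSME4, PSMB3, PSMD3, PSMD12 and PSMG1. It was also found in PSMC4, PSMD1, PSMD5, PSMD9, PSME1, PSME2 and PSMG2, which did not lie wholly below in HU. The site is thus not particular to the members below in HU. The windows below show it in 4 of the 5, all but PSMG1, and windows of the other members are not shown. These 4 windows lie outside the annotated spans of their genes. Each is written 5′ to 3′ on the gene's strand with the 9 letters of the match in capitals, at chr2:53970994-53971052 (minus strand), chr17:38752612-38752670 (plus), chr17:39980745-39980796 (plus) and chr17:67366709-67366767 (minus) in that order.
PSME4: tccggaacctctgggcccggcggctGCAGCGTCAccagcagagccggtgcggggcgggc
PSMB3: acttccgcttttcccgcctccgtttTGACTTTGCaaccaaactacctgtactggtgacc
PSMD3: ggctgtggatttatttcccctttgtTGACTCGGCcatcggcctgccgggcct
PSMD12: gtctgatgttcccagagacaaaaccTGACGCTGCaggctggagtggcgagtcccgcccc
The matches begin 34, 104, 37 and 165 bases before the start that RefSeq gives. In PSME4 the match is on the opposite strand, so its letters read as the reverse complement of the motif. A match describes letters only, and no binding was measured.

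In the alpha ring, 5 of 6 tested genes had negative log2 fold changes in HU (all genes 48.7%) and none passed edgeR's test. In this ring PSMA7 alone had an unadjusted p under 0.05 (all genes 21.2%) and was called by DESeq2 (all genes 19.5%). PSMA7, the most abundant steady member per length, stood at 566, 574 and 590.3 CPM in the DMSO libraries, 486, 488 and 480.1 CPM in HU and 563, 565 and 639.5 CPM in Thy-Noc. All HU values lay below all others, and replicates within DMSO and HU lay close together. Its log2 fold change was −0.25 ± 0.07, which did not pass (edgeR adjusted p 0.116). PSMA3 stood at 499.7, 541 and 488 CPM in the DMSO libraries, 462, 412 and 464 CPM in HU and 498, 437 and 606 CPM in Thy-Noc. HU lay below DMSO without overlap, but a Thy-Noc library fell among the HU values, and the log2 fold change of −0.19 ± 0.13 did not pass (edgeR adjusted p 0.462). PSMA5 had 141, 140.3 and 159 CPM in DMSO and 142, 120.0 and 145 CPM in HU, which overlapped. PSMA4, whose product helps to close the gate of the core, varied more, at 705, 416 and 149 CPM in the DMSO libraries, 112, 356 and 95.0 CPM in HU and 472, 350.2 and 547 CPM in Thy-Noc. Its DMSO and HU values overlapped, and its log2 fold change of −1.18 ± 0.68 had a wide interval (−2.76 to 0.41). PSMA2 was low, between 1.86 and 16.2 CPM, and had the only positive value of the ring (1.27 ± 0.87).

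Among the 4 beta-ring genes without a cutting site, none passed edgeR's test in HU. An unadjusted p under 0.05 was reached by 2 (all genes 21.2%), and DESeq2 called 2, PSMB2 and PSMB3 (all genes 19.5%). PSMB2 came nearest to the threshold. It stood at 314, 329 and 311 CPM in the DMSO libraries, 265, 257 and 258 CPM in HU and 305, 304 and 327 CPM in Thy-Noc. The HU libraries lay apart from and below the other 6, and the log2 fold change of −0.29 ± 0.07 had an edgeR adjusted p of 0.0643. With a CPM minimum of 5, by limma at each pseudocount tried and by DESeq2, PSMB2 was called lower. PSMB3 stood at 281, 281 and 273 CPM in the DMSO libraries, 245, 244 and 244 CPM in HU and 261, 295 and 302 CPM in Thy-Noc. After TMM scaling its HU values were nearly equal and lay below all others. The log2 fold change of −0.19 ± 0.08 did not pass (edgeR adjusted p 0.218). PSMB1 differed little, with 256, 263 and 251 CPM in DMSO and 256, 256 and 242 CPM in HU and a 95% interval of −0.21 to 0.15 on the log2 scale. PSMB4 was unsteady, at 21.6, 4.99 and 84.1 CPM in DMSO and 76.3, 79.6 and 102 CPM in HU.

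Of the 4 genes for cutting subunits, none passed edgeR's test in HU. Only PSMB7 had an unadjusted p under 0.05 (all genes 21.2%) and was called by DESeq2 (all genes 19.5%). PSMB7 carries the trypsin-like activity of the standard core. It stood at 208, 216 and 203 CPM in the DMSO libraries, 182, 166 and 167 CPM in HU and 199, 196 and 230.5 CPM in Thy-Noc. HU lay below both other groups without overlap, and the log2 fold change of −0.28 ± 0.09 did not pass (edgeR adjusted p 0.134). PSMB10, the interferon-inducible counterpart that replaces PSMB7 in immune cells, stood at 51.5, 51.9 and 54.4 CPM in the DMSO libraries, 63.7, 51.1 and 54.2 CPM in HU and 61.5, 68.2 and 69.3 CPM in Thy-Noc. Its DMSO and HU values overlapped (log2 fold change 0.10 ± 0.11), and the interval ran from −0.17 to 0.37. PSMB6, the caspase-like subunit, was listed at only 7.10, 3.18 and 5.24 CPM in the DMSO libraries, 9.63, 7.74 and 7.86 CPM in HU and 0.806, 12.3 and 2.66 CPM in Thy-Noc. HU lay above DMSO in each library, but Thy-Noc spanned both, and the log2 fold change was 0.70 ± 0.86 (edgeR adjusted p 0.733). PSMB5, the chymotrypsin-like subunit and main target of proteasome inhibitor drugs, was unsteady, at 82.2, 0.345 and 99.7 CPM in the DMSO libraries, 324, 72.0 and 0.343 CPM in HU and 116, 102 and 0.228 CPM in Thy-Noc. A value under 1 CPM occurred once in each group, so no direction could be read.

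In the ATPase ring of the cap's base, 3 of 6 genes were negative in HU, and in none did the HU and DMSO libraries separate. None passed by edgeR or DESeq2 (all genes 3.56% and 19.5%), and 0 had an unadjusted p under 0.05 (all genes 21.2%). PSMC3 had 128, 179 and 122 CPM in DMSO and 157, 123 and 157 CPM in HU. PSMC4 had 125, 105 and 159.6 CPM in DMSO and 122, 104 and 104 CPM in HU. Both overlapped, with intervals of −0.44 to 0.49 for PSMC3 and −0.77 to 0.28 for PSMC4 on the log2 scale. PSMC2 had the largest negative value of a steady member. It stood at 29.9, 9.78 and 47.1 CPM in the DMSO libraries, 3.39, 6.36 and 11.9 CPM in HU and 8.48, 1.32 and 9.42 CPM in Thy-Noc. The lowest DMSO library overlapped HU, and the log2 fold change of −2.002 ± 0.88 did not pass (edgeR adjusted p 0.251). PSMC6 ranged from 73.7 to 330.4 CPM over the 9 libraries, with DMSO and HU overlapping. PSMC1 was listed at 39 to 219 counts and its pseudogene PSMC1P1 at 127 to 337, so the value of PSMC1 is uncertain, and whether the copies share reads was not tested. For the base's other subunits, the ubiquitin receptor PSMD4 overlapped between groups. The scaffold gene PSMD2 was low, at 3.32, 7.27 and 3.001 CPM in DMSO and 1.80, 2.81 and 2.16 CPM in HU, without overlap (log2 fold change −1.005 ± 0.53, edgeR adjusted p 0.331).

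In the lid, HU lay wholly below DMSO for 5 of 8 genes. Over all genes that share was 15.3%. None of the 8 passed edgeR's test. An unadjusted p under 0.05 was reached by 5 (all genes 21.2%), and DESeq2 called 5, PSMD3, PSMD7, PSMD12, PSMD13 and PSMD14 (all genes 19.5%). PSMD14, the enzyme that cuts the ubiquitin chain from the substrate, stood at 285, 295 and 296 CPM in the DMSO libraries, 247, 253 and 256 CPM in HU and 307, 294 and 315 CPM in Thy-Noc. HU lay below both other groups with a gap wider than the spread within DMSO or HU, and the log2 fold change was −0.21 ± 0.07 (edgeR adjusted p 0.123). Its partner in the lid, PSMD7, stood at 238, 233 and 247 CPM in the DMSO libraries, 212, 210.0 and 199 CPM in HU and 272, 243 and 265 CPM in Thy-Noc. Again HU lay below all other libraries (log2 fold change −0.21 ± 0.07, edgeR adjusted p 0.173). PSMD3, a scaffold of the lid, stood at 562, 565 and 568 CPM in the DMSO libraries, 475, 529 and 492 CPM in HU and 581, 549 and 599 CPM in Thy-Noc. All HU values were below the others, and the DMSO replicates lay close together. Its log2 fold change of −0.18 ± 0.07 did not pass (edgeR adjusted p 0.212), and quantile normalization shrank it to −0.03. PSMD12 showed a larger difference, at 138, 142 and 131 CPM in the DMSO libraries, 119.7, 82.8 and 104 CPM in HU and 137, 122 and 140.4 CPM in Thy-Noc. HU lay lowest, with HU replicate 2 the farthest from the rest, and the log2 fold change of −0.42 ± 0.14 did not pass (edgeR adjusted p 0.147). PSMD11, which clamps the cap to the core, was also wholly below but unsteady, with 42.5, 62.0 and 41.8 CPM in DMSO and 32.0, 0.337 and 37.9 CPM in HU. PSMD8 overlapped, at 97.2, 559.6 and 75.7 CPM in DMSO and 488, 433 and 71.6 CPM in HU.

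Of 7 tested assembly genes, 6 were negative in HU (all genes 48.7%) and none passed edgeR's test. An unadjusted p under 0.05 was reached by 2 (all genes 21.2%). By DESeq2 the same 2, PSMG1 and PSMD10, were called (all genes 19.5%). PSMG1, which pairs with PSMG2 to build the alpha ring, stood at 79.1, 71.9 and 112 CPM in the DMSO libraries, 49.2, 46.9 and 53.3 CPM in HU and 61.4, 107 and 63.8 CPM in Thy-Noc. HU was lowest in every library while DMSO and Thy-Noc overlapped, a level 1.76-fold lower than in DMSO. The log2 fold change of −0.81 ± 0.26 did not pass (edgeR adjusted p 0.134). PSMD10, also called gankyrin, a chaperone of the base, stood at 56.4, 58.0 and 56.4 CPM in the DMSO libraries, 50.3, 46.0 and 45.5 CPM in HU and 57.2, 66.0 and 65.7 CPM in Thy-Noc. HU lay below both other groups, with a log2 fold change of −0.27 ± 0.10 (edgeR adjusted p 0.184). PSMG3 overlapped between groups, with 42.1, 34.4 and 40.9 CPM in DMSO and 32.8, 38.6 and 39.7 CPM in HU. PSMD5, a base chaperone, was listed at 0.343 to 1.28 CPM throughout. PSMG2, PSMG4 and PSMD9 were unsteady.

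**Figure D3:**
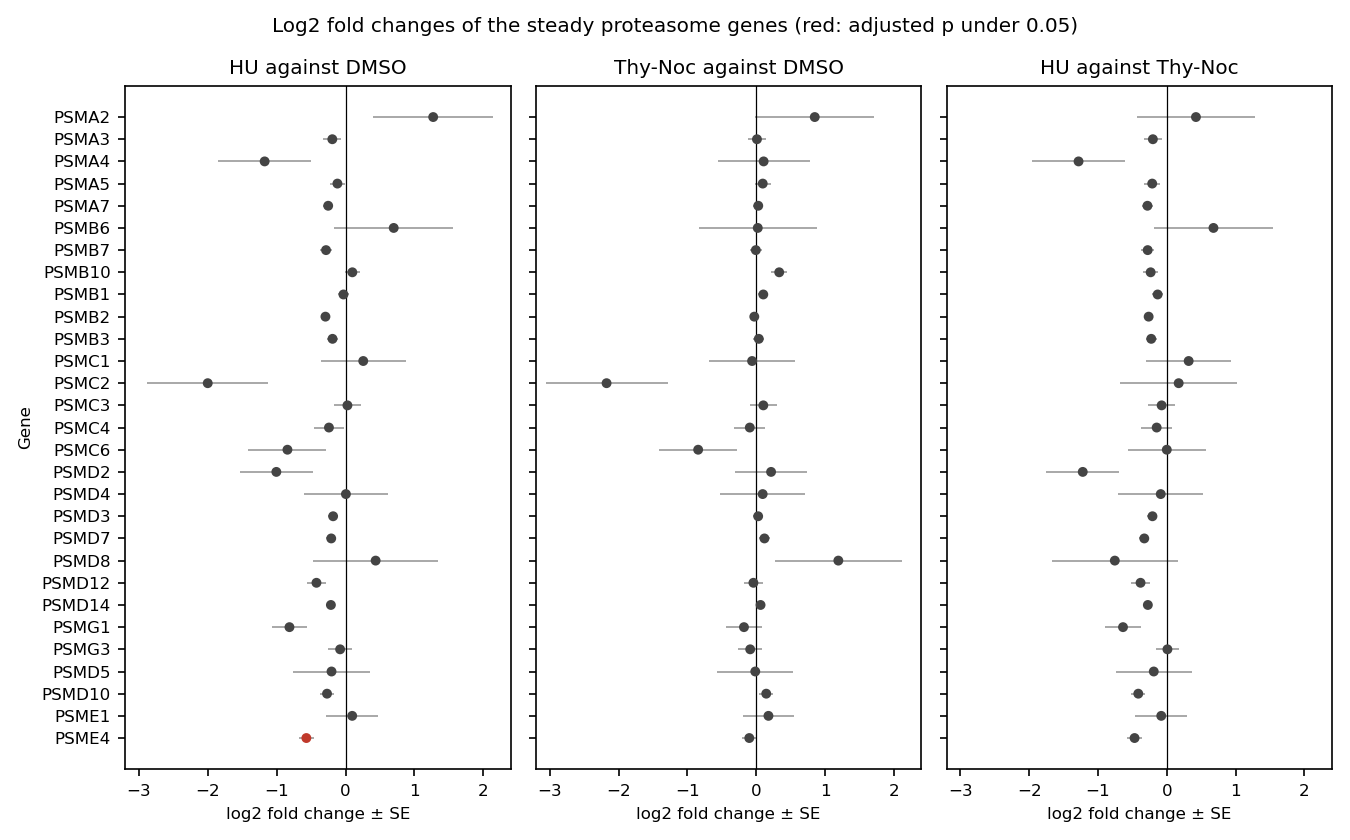
Log2 fold changes ± SE (x axis) of the 29 steady proteasome genes (y axis, ordered by role from the alpha ring at the top to the activators at the bottom) in each comparison. In HU against DMSO 21 of 29 are negative and PSME4, in red, is the call. In Thy-Noc against DMSO 11 of 29 are negative, and in HU against Thy-Noc 24 of 29. With total-count scaling these counts are 19, 15 and 18. Of all steady genes 48.5%, 49.1% and 48.6% are negative in the same order of comparisons, with TMM scaling.

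Apart from PSME4, the genes that act on the core's gate gave few steady values. PSME1, a subunit of the interferon-inducible activator, stood at 59.6, 82.4 and 65.8 CPM in the DMSO libraries, 71.0, 47.7 and 104 CPM in HU and 50.4, 116 and 69.4 CPM in Thy-Noc. All groups overlapped. PSMF1 encodes a protein first described as an inhibitor of the core, and it gave the largest value of HU against DMSO among members. It lies on the plus strand at chr20:1113263-1189415 and stood at 0.748, 0.709 and 0.763 CPM in the DMSO libraries, 231, 220.1 and 88.1 CPM in HU and 0.642, 108 and 246 CPM in Thy-Noc. The 3 DMSO libraries and Thy-Noc replicate 1 lay under 1 CPM, and the other 5 between 88.1 and 246.1 CPM. The log2 fold change in HU was 7.92 ± 1.84, which did not pass (edgeR adjusted p 0.0644). It was called higher without Thy-Noc replicate 1 (edgeR adjusted p 0.00894), with only the 6 libraries compared (0.0229) and by DESeq2. DMSO counts of 59, 76 and 60 were not at the table's smallest value, which is 1. PSME3, an activator of the nucleus, was between 0.376 and 3.51 CPM in 7 libraries. It reached 156 CPM in HU replicate 3 and 75.0 CPM in Thy-Noc replicate 3.

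Thy-Noc against DMSO gave no called member. None of 42 passed edgeR's test (all genes 0.0353%), 4 had an unadjusted p under 0.05 (all genes 4.49%), and DESeq2 called 2, PSMC5 and PSMF1, both unsteady (all genes 1.64%). All Thy-Noc libraries lay below DMSO for 2 members, PSMC2 and PSMD11 (all genes 4.79%), and above for 1, PSMB10 (all genes 5.18%). PSMB10 averaged 52.6 ± 1.55 CPM in DMSO and 66.3 ± 4.24 CPM in Thy-Noc (mean ± SD, n = 3 each). Its log2 fold change was 0.33 ± 0.11, with an unadjusted p of 0.0211 and an adjusted p of 1 by edgeR. PSMC2, low throughout, had −2.17 ± 0.89 on the same scale (edgeR adjusted p 1). For PSME4 the log2 fold change was −0.10 ± 0.11 with a 95% interval of −0.36 to 0.16. The members' median was 0.06, where that of all genes was 0.01. In the 18 members whose replicates stayed within 2-fold in every group, a limit chosen after the values were seen, the log2 fold changes ran only from −0.18 to 0.33. Among those 18, 16 were negative in HU against DMSO, where 48.5% of all steady genes were negative. The share among all genes with replicates within 2-fold was not computed. Both comparisons use the same DMSO libraries.

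The direct comparison of the 2 treatments, HU against Thy-Noc, also gave no called member by edgeR (all genes 1.75%). An unadjusted p under 0.05 was reached by 13 of 42 (all genes 19.4%), and DESeq2 called 11, each lower in HU (all genes 16.7%). All HU libraries lay below all Thy-Noc libraries for 14 members (33.3%, all genes 12%) and above for 1, the unsteady PSMB4 (all genes 12.9%). Among steady members 13 of 29 lay wholly below (44.8%), against 13.2% of all steady genes. The HU libraries are the same as those set against DMSO, so these counts are not an independent repeat of that comparison. The smallest edgeR adjusted p was that of PSMD7, 0.0795, with a log2 fold change of −0.33 ± 0.07. PSME4 had −0.47 ± 0.11 (edgeR adjusted p 0.0826) and PSMD14 −0.28 ± 0.07 (0.0831). PSMD10, at 63.0 ± 4.99 CPM in Thy-Noc and 47.3 ± 2.62 CPM in HU (SD, n = 3), had −0.41 ± 0.10 (edgeR adjusted p 0.0871). The members' median was −0.21, with 31 of 42 negative (all genes 49.3%). With total-count scaling it was −0.08 with 25 of 42 negative (18 of 29 steady members), where the median of all genes moved from 0.01 to 0.16.

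The 13 unsteady members included subunits without which no cap or core is known to form. PSMC5, an ATPase of the base at chr17:63827152-63832026 with 21 annotated transcripts, stood at 1.05, 0.989 and 1.27 CPM in the DMSO libraries, 0.544, 1.63 and 1.26 CPM in HU and 1.04, 699 and 1243 CPM in Thy-Noc. It was near 1 CPM in 7 libraries and among the most abundant members in Thy-Noc replicates 2 and 3. PSMC5 had a log2 fold change of 9.19 ± 2.16 in Thy-Noc against DMSO and −9.14 ± 2.16 in HU against Thy-Noc, neither of which passed (edgeR adjusted p 1 and 0.0831). PSMD6, a lid subunit, was listed at 24673, 1 and 21961 counts in the DMSO libraries, 275, 20761 and 23683 in the HU libraries and 1, 20887 and 32944 in the Thy-Noc libraries. A value of 1 stood beside replicates of at least 20887 in 2 groups. PSMD1, the other large scaffold of the base, ranged from 23.4 to 1343 CPM. PSMD13 of the lid had 8.11, 454 and 132 CPM in DMSO and 10.3, 35.6 and 6.15 CPM in HU, and its log2 fold change of −3.51 ± 1.41 did not pass (edgeR adjusted p 0.209). PSMA6 had 5.25, 141 and 83.7 CPM in DMSO, and PSMG4 had 44.4, 0.0187 and 0.0127 CPM. Unsteady genes had the largest differences of several classes in HU against DMSO, each with a wide SE. The log2 fold changes were −1.39 ± 1.48 for PSMA6, 1.12 ± 2.42 for PSMB5, 1.22 ± 1.36 for PSMB4, −2.94 ± 1.47 for PSMD1, 1.997 ± 1.63 for PSMD9 and 4.88 ± 2.46 for PSME3, and none passed. Low libraries were not the same from gene to gene: DMSO replicate 1 was lowest of its group for PSMA6, PSMD1 and PSMD13, DMSO replicate 2 for PSMB5, PSMB4 and PSMD6.

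**Figure D4:**
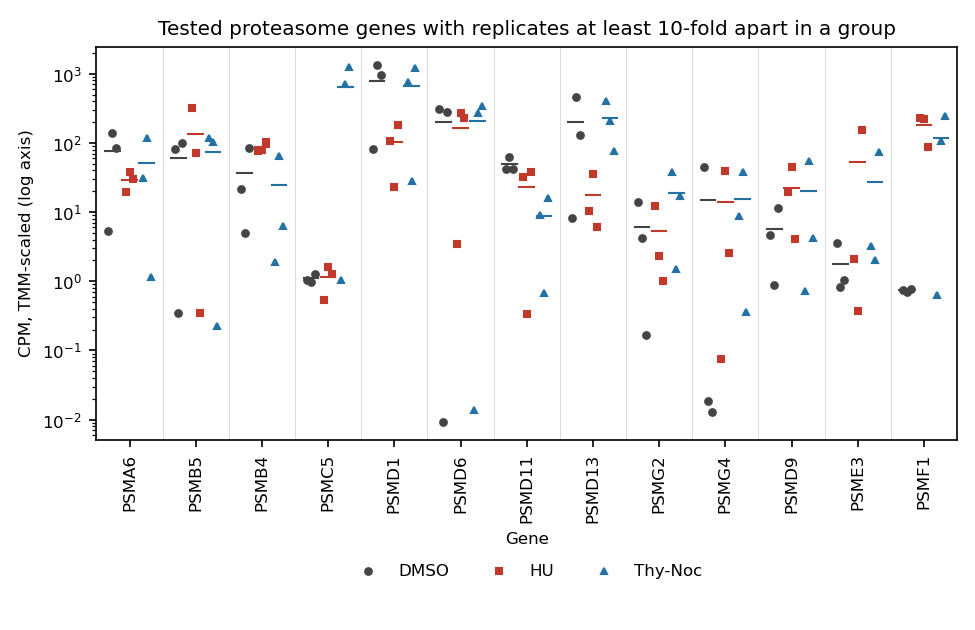
CPM of the 13 unsteady proteasome genes in each library (y axis, log axis), with circles for DMSO, squares for HU and triangles for Thy-Noc, and a bar at each group's mean. Replicates of the same group lie far apart, as for PSMC5, where 7 libraries stand near 1 CPM and 2 Thy-Noc libraries at 699 and 1243 CPM.

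Levels of different genes were compared per kilobase of coding length. Among the 18 members with replicates within 2-fold, the DMSO means ran from 36.3 CPM per kb for PSME4 to 775 for PSMA7, with a median of 224. The same genes were lowest and highest in HU, at 24.5 and 651 CPM per kb with a median of 197, and in Thy-Noc, at 33.9 and 792 with a median of 234. In DMSO the 8 core genes among them ran from 64.2 to 775 CPM per kb with a median of 404, and the 4 lid genes from 100 to 353 with a median of 280, so the 2 classes overlapped. The 3 assembly genes lay between 84.0 and 107 CPM per kb, and the base ATPase genes PSMC3 and PSMC4 between 104 and 109. PSMB10 stood at 64.2 CPM per kb and its standard counterpart PSMB7 at 252. The limit of 2-fold that defines the 18 was chosen after the values were seen. Over all 29 steady members the DMSO means ran from 0.626 CPM per kb for PSMD5 to 775 for PSMA7, with a median of 109. Reads in untranslated parts add to a level but not to its length, and whether each value holds all reads of its gene was not tested. These are therefore only approximate ranks.

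Other genes of the pathway were read from lists of its regulators, partners and neighbours. The name rule leaves out 2 immunoproteasome genes. PSMB8 stood at 290.4, 339 and 352 CPM in the DMSO libraries, 322, 389.5 and 393 CPM in HU and 239.7, 316 and 347 CPM in Thy-Noc, and its groups overlapped. PSMB9 stood at 5.02, 6.38 and 5.90 CPM in the DMSO libraries, 4.05, 4.54 and 4.62 CPM in HU and 0.956, 5.62 and 0.0518 CPM in Thy-Noc, lower in each HU library than in DMSO but unsteady in Thy-Noc. Of 20 tested further subunits, assembly factors and receptors, none was called in any comparison by edgeR. In HU against DMSO 3 of them were below 0.05 before adjustment (all genes 21.2%). DESeq2 called 2, ZFAND5 and the unsteady ZFAND2A, zinc-finger proteins known to bind the proteasome (all genes 19.5%). In each of the other comparisons these counts were 0 and 0. There the shares of all genes were 4.49% and 1.64% (Thy-Noc against DMSO) and 19.4% and 16.7% (HU against Thy-Noc). The largest log2 fold change of these genes in HU against DMSO was 3.67 ± 1.24, for ZFAND2A (edgeR adjusted p 0.152). ZFAND2A stood at 12.9, 0.764 and 3.13 CPM in HU and 0.203, 0.467 and 0.649 CPM in DMSO. ADRM1, a ubiquitin receptor of the cap, had 102, 102 and 129 CPM in DMSO and 58.5, 89.9 and 87.1 CPM in HU, while SEM1 and POMP, a small lid subunit and the chaperone that matures the core, were unsteady. Of 19 tested genes that regulate or report on NFE2L1 and NFE2L2, edgeR called 1 in HU against DMSO (all genes 3.56%). Before adjustment 3 were below 0.05 (all genes 21.2%). DESeq2 called the gene that edgeR called and SYVN1, a ubiquitin ligase of the endoplasmic reticulum (all genes 19.5%). The log2 fold change of SYVN1 was 1.07 ± 0.33 (edgeR adjusted p 0.122). HCFC1, a nuclear host-cell factor that binds many transcription factors, stood at 251, 279 and 231 CPM in the DMSO libraries, 157, 120.1 and 173 CPM in HU and 218, 190.3 and 229 CPM in Thy-Noc. It was lower in HU in every library (log2 fold change −0.76 ± 0.15, edgeR adjusted p 0.0469). That call was lost when any single library was left out (adjusted p 0.0651 to 0.152). NFE2L1 itself was unsteady, at 317, 2.79 and 1.73 CPM in DMSO and 3.86, 2.35 and 2.84 CPM in HU. NFE2L2 stood at 43.0, 4.55 and 6.78 CPM in DMSO and 16.5, 1.49 and 1.34 CPM in HU, which overlapped. Among 16 genes of the segregase VCP and its cofactors, 10 ubiquitin and E1 genes and 11 peptidases that trim the proteasome's products, edgeR called none in any comparison. At most 4, 0 and 2 of them were below 0.05 before adjustment in any comparison, and at most 3, 0 and 2 were called by DESeq2. Over all genes the highest such shares were 21.2% and 19.5%, both in HU against DMSO. The largest log2 fold change in HU against DMSO was −2.61 ± 1.21 among the VCP genes, for the cofactor UBXN2A. Among the peptidases it was 1.01 ± 1.17, for the aminopeptidase LAP3. UBXN2A and LAP3 were both unsteady.

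Of 26 tested E2 enzymes, which hand ubiquitin to its targets, edgeR called 3 in HU against DMSO, beside 3.56% of all genes. An unadjusted p under 0.05 was reached by 6 of the 26 (all genes 21.2%). DESeq2 also called 6, UBE2D2, UBE2G1, UBE2H, UBE2J1, UBE2S and UBE2Z (all genes 19.5%). UBE2J1, an E2 of the endoplasmic reticulum that marks misfolded proteins, stood at 251, 264 and 221 CPM in the DMSO libraries, 119, 109 and 119 CPM in HU and 223, 204 and 233 CPM in Thy-Noc. HU lay far below both other groups, 2.12-fold lower than DMSO (log2 fold change −1.08 ± 0.10, edgeR adjusted p 0.00884). UBE2S, which extends chains for the anaphase-promoting complex, stood at 122, 121 and 126 CPM in the DMSO libraries, 78.9, 55.7 and 68.4 CPM in HU and 146, 108 and 150.4 CPM in Thy-Noc. HU was lowest in every library (log2 fold change −0.86 ± 0.17, edgeR adjusted p 0.0456). UBE2H, an E2 of protein turnover, was higher in HU, at 86.8 ± 5.65 CPM beside 53.4 ± 2.48 CPM in DMSO (SD, n = 3; log2 fold change 0.70 ± 0.09, edgeR adjusted p 0.0193). Against Thy-Noc, UBE2J1 and UBE2S were again lower in HU (edgeR adjusted p 0.0162 and 0.0422), where edgeR called 1.75% of all genes. In that comparison 6 of the 26 had an unadjusted p under 0.05 (all genes 19.4%), and DESeq2 called 5 (all genes 16.7%). In Thy-Noc against DMSO edgeR called no E2 (all genes 0.0353%). There 4 had an unadjusted p under 0.05 (all genes 4.49%), and DESeq2 called 1, UBE2H (all genes 1.64%). In HU against DMSO the UBE2J1 call held without each single library (adjusted p 0.0197 to 0.0392). The UBE2H call was lost without any DMSO library or HU replicate 1 or 3 (up to 0.0781), and the UBE2S call without any library but Thy-Noc replicate 2 (up to 0.139). Against Thy-Noc, the UBE2J1 call was lost without Thy-Noc replicate 3 or HU replicate 1 or 3 (up to 0.0668), and the UBE2S call without any library (0.0535 to 0.134). UBE2S changed beside CDC20, TOP2A and CENPF, and the part of the cell cycle in its value was not tested.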

How the data were processed

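RNA of Raji cells was measured in 9 libraries, 3 each for DMSO, HU and Thy-Noc, made with a stranded mRNA kit, as the labels' protocols give it. STAR, Trim Galore, FastQC, DESeq2 and the build GRCh38 stand in the submitters' processing notes, without versions. The sources used here do not give the counting tool, its annotation or its strand setting. So antisense and overlapping genes and near-identical copies are uncertain. The authors deposited 1 table whose name calls the values CPM. They are whole numbers with unequal totals and were treated like expected counts as the authors deposited them. No value is 0, and 274 genes stand at 1 in all libraries.

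Genes with at least 1 CPM in at least 3 libraries (11346 of 15436) were tested in R 4.3.3 with edgeR 4.0.16: TMM scaling, quasi-likelihood F tests on 3 group means over all 9 libraries, 6 residual degrees of freedom, Benjamini-Hochberg adjustment over all tested genes and a threshold of 0.05. Each standard error is the size of the log2 fold change over the root of F, and intervals are 95% intervals from the same fit. The steps were tested on simulated counts whose spread between replicates was capped. That test does not show how they behave on unsteady genes. No 2 libraries of a group agreed within counting noise (chi-square per degree of freedom 691 to 911). Coordinates, transcript numbers and coding lengths came from GENCODE 29 (GRCh38).

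The fit was repeated with DESeq2 1.42.0, with limma 3.58.1 at pseudocounts of 0.1 and 1 CPM, without a filter, with a filter of 5 CPM, with median-of-ratios scaling or quantile normalization, with a term for the replicate number, on the 6 libraries compared alone, and without each library in turn. Limma at 0.5 CPM, leaving out unsteady genes and total-count scaling were chosen after seeing the data. The members, the lists (further subunits, interferon-inducible genes, NFE2L1 and NFE2L2 regulation, VCP, ubiquitin and E1, E2, peptidases, cell-type and cycle markers) and the 10-fold limit were chosen with earlier results of these data known. Named were all called members, the largest change, at a mean of 2 CPM or more, of each class or list without a call in HU against DMSO, up to 4 called genes per list and direction, and a fixed set (NFE2L1, NFE2L2, POMP, PSMB8, PSMB9, PSMB10, PSME1 and PSME2). Other members are given for their role. Of the other comparisons, some largest changes without a call are left out, and 1 gene that the rule names is not reported here.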

Additional observations from a re-analysis of the deposited data

How the results depend on the processing

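The count of proteasome genes called in HU against DMSO, 1 by edgeR, was 0 with the replicate block, with total-count scaling and with no filter. It was 2 with a CPM minimum of 5 and with limma at a pseudocount of 0.1, 0.5 or 1 CPM (PSMB2 and PSME4), 13 with DESeq2, and 0 to 2 when single libraries were left out (2 without Thy-Noc replicate 1, 0 without any other). With only the 6 libraries compared it was again 1, but the gene was PSMF1. PSME4 kept its sign in all 21 alternatives and was called in 9 (adjusted p 1.91e-05 to 0.146). For Thy-Noc against DMSO the count of 0 became 2 with DESeq2 and ran from 0 to 2 without single libraries (PSMC5 and PSMF1 without Thy-Noc replicate 1). For HU against Thy-Noc it became 11 with DESeq2 and ran from 0 to 1 without single libraries (PSMC5 without Thy-Noc replicate 1). The causes were not tested. Over all genes, 404 were called in HU against DMSO, 9 with the block, 20 to 309 without single libraries and 2135 with DESeq2. In HU against Thy-Noc, 199 were called, 0 with the block, 1 to 110 without single libraries and 1826 with DESeq2. Total-count scaling moved the share of calls that were higher from 56.2% to 72.7% in HU against DMSO and from 39.7% to 70.7% in HU against Thy-Noc. Over all tested genes, same-numbered libraries of different groups did not deviate together (correlations −0.035 to 0.04, other pairs −0.054 to 0.033). Unsteady genes were included, so a smaller shared effect in steady genes could be missed, and a pairing is not excluded. The main fit took the numbers as names and not as a pairing.

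Among the members tested under all alternatives (those named for a change or with an unadjusted p under 0.05), signs were reversed in PSMA2, PSMB4, PSMB5, PSMD1, PSMD9 and PSME3, none of them called. In HU against DMSO, PSMB5 was −2.28 with the replicate block and −0.75 to 1.71 without single libraries (log2 fold changes throughout). In Thy-Noc against DMSO, the values without single libraries were −0.28 to 1.30 for PSMA2, −3.18 to 0.88 for PSMB4, −1.02 to 0.35 for PSMD1 and −1.18 to 2.87 for PSMD9. In HU against Thy-Noc, PSMB5 was −1.01 to 1.44. PSME3 was −4.42 to 4.32 without single libraries, −0.35 with quantile normalization, −0.57, −0.33 and −0.18 with limma at 0.1, 0.5 and 1 CPM, and −0.24 with the replicate block. Over all 42 members, total-count scaling changed the sign of 2 in HU against DMSO (PSMB1 and PSMG3), 5 in Thy-Noc against DMSO (PSMA3, PSMA7, PSMB3, PSMD3 and PSMD6) and 6 in HU against Thy-Noc (PSMB1, PSMC3, PSMC4, PSMC6, PSMD4 and PSME1), with sizes up to 0.15 before the change. All were steady genes but PSMD6. What limits the genes with replicates at least 10-fold apart was not tested.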
